A study of Mus musculus with 3 samples.

Results

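These data describe where the nuclear receptor NR2F2 was bound just inside genes in the fetal mouse testis. The regions described here are the NR2F2 peaks that lay just downstream of a transcription start site (TSS), that is, inside the beginning of a transcribed gene but not over its first base. They were chosen by position alone: the nearest TSS lay 1 to 1000 bp upstream of the peak's nearer edge in the direction of transcription, and no TSS of the opposite strand lay within 1 kb. By this rule 1892 of the 10069 peaks were just downstream of a TSS (18.8%), and 1099 lay at the same distances upstream of one. Start sites were those of curated RefSeq transcripts on the GRCm38 assembly, which has the coordinates of the mm10 build in which the peaks were given.

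The study measured NR2F2 binding by chromatin immunoprecipitation and sequencing (ChIP-seq) in whole testes, freed of the mesonephros, from CD-1 mouse embryos at E14.5. There were 2 NR2F2 ChIP libraries, made with a COUP-TFII antibody on chromatin from 30 pooled testes, and 1 input library of chromatin that was not immunoprecipitated. All 3 libraries came from the same stage and tissue, and the labels name no genetic or drug treatment, so the comparisons run between ChIP and input and between classes of peaks. The chromatin came from all testicular cell types together, and the cells in which a peak was bound cannot be told apart.

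NR2F2, also called COUP-TFII, is an orphan nuclear receptor that is found in mesenchymal and venous endothelial cells of many organs, and in the fetal testis marks interstitial cells. Nuclear receptors of its kind recognise the hexamer AGGTCA or close forms of it, called a half-site, and bind as dimers to a pair of them. A direct repeat with 1 base between the hexamers (DR1) is a well-known COUP-TF site. The stretch just downstream of a TSS holds the 5′ untranslated region, the start codon of many genes and the beginning of the first intron, and in many genes belongs to the same CpG-rich, open chromatin as the promoter.

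The plainest form of such a site, a DR1, was found in 16 of the peaks, and the 6 of these with the highest ChIP counts are printed to show it. Each line gives the nearest gene, the place of the stretch on mm10, its strand, and 30 bases read 5′ to 3′ from the reference genome with the repeat in capitals.
Ndufs8 (chr19:3912481-3912510, minus strand): cgttcataGGGTCAGAGGTCAaggggaagg
Tmem259 (chr10:79983881-79983910, plus strand): ggggtcagAGGTCAGGGGTCAgaggtcacc
Mllt10 (chr2:18056500-18056529, minus strand): aggagccgAGGTCAGAGGTCAgggccctgg
Smim20 (chr5:53267355-53267384, minus strand): actgcgcgGGGTCAGAGGTCActcacggta
Tbc1d22a (chr15:86214663-86214692, plus strand): ggggtcagGGGTCAGAGGTCAggtggccgt
Fads3 (chr19:10042066-10042095, minus strand): cagggaagGGGTCAAAGGTCAgaaagagca
All 6 peaks had their midpoint in the first intron of their gene. At Ndufs8 and Tbc1d22a the repeat read in the direction of the gene, and at the other 4 genes against it. Around the repeat, the Ndufs8 peak held 6 hexamers of the form AGGTCA or GGGTCA in all and the Tmem259 peak 5.

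Other peaks with high counts held hexamers but no DR1 in those exact letters. These are printed for contrast, with the hexamer nearest the peak midpoint in capitals, or for Oxa1l the longer form AGAGGTCA.
Atp5e (chr2:174463826-174463855, minus strand): cgcggggtcatgGGGTCAgggaccctaaac
Ilvbl (chr10:78574652-78574681, plus strand): gctgaaggccaaAGGTCAagagtctggtgt
Tha1 (chr11:117873240-117873269, plus strand): ccggccctggccGGGTCAccgtgtcgctgc
Eva1b (chr4:126149200-126149229, minus strand): agcagggagcggAGGTCAcagggggccctg
Oxa1l (chr14:54361104-54361133, minus strand): ggacggggcccAGAGGTCAcggctcagggt
The Atp5e peak held 6 hexamers, the Ilvbl peak 3, the Tha1 peak 2 and the Eva1b peak 1. In the Atp5e stretch another GGGTCA ended 2 bases before the capitals and read in the same direction. A match of letters is a description of the sequence, and binding to it was not measured.

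Peaks just downstream of a TSS lay close to it. The median distance from the TSS to the nearer edge was 184 bp, with quartiles of 67 and 363 bp, and the median distance to the peak midpoint was 334 bp. Of the 1892 peaks, 644 (34.0%) began within 100 bp of the TSS, 355 began at 101 to 200 bp, and 32 began at 901 to 1000 bp. For each peak just upstream of a TSS there were 1.72 just downstream. The peaks that overlapped a TSS of 1 strand were placed in the same way: 1228 of these 1880 had their midpoint downstream of the TSS, 644 upstream and 8 on it.

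**Figure D1:**
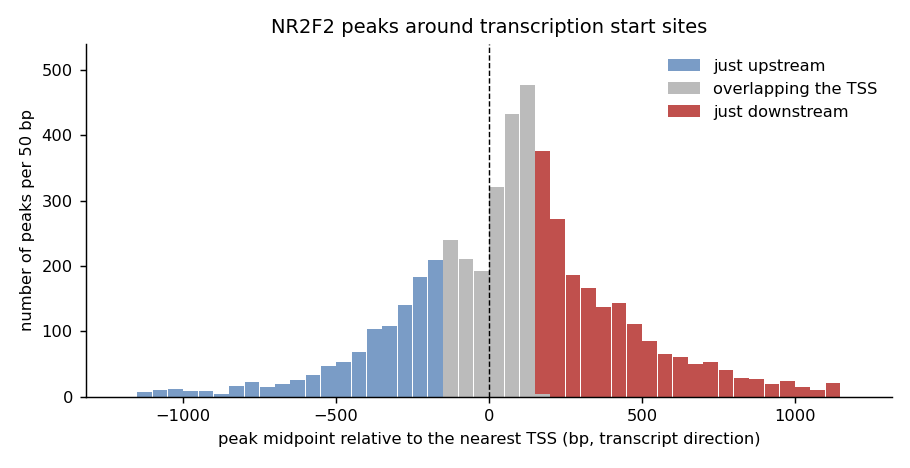
Number of NR2F2 peaks per 50 bp (vertical axis) by the position of the peak midpoint relative to the nearest TSS, in bp along the transcript (horizontal axis). Blue bars are peaks just upstream, grey bars peaks overlapping the TSS and red bars peaks just downstream. The bars reach 477 peaks at 100 to 149 bp downstream against 240 at most among the bars upstream of the TSS, and the red bars fall from 371 at 150 to 199 bp.

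The peaks spread over many genes. They were nearest to 1871 genes, which is 7.15% of the 26180 genes with a curated transcript, and 46 lay on the X chromosome. The nearest transcript was protein-coding at 1826 peaks and non-coding at 66. There were 19 genes with 2 such peaks. Mllt10, which encodes a partner of the histone methyltransferase DOT1L, had 3, each downstream of a start site of that gene. Its first peak had 146 and 133 ChIP reads over 6 in the input, whereas the other two had 22 and 15 reads over 4 and 27 and 27 reads over 7. Another NR2F2 peak lay within 1 kb of 209 of the peaks (11.0%), compared with 5.76% of all other peaks. The neighbour was a peak upstream of a TSS in 117 cases, a peak over a TSS in 56 and another peak just downstream in 27.

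The midpoint of 1114 peaks (58.9%) was intronic, that of 438 (23.2%) lay in a coding exon and that of 302 (16.0%) in a 5′ untranslated region. A further 30 were in exons of non-coding transcripts, 7 lay beyond the end of a short transcript and 1 was in a 3′ untranslated region. The first intron alone took 1076 midpoints (56.9%) and the first exon 719 (38.0%). Among the 1816 peaks in genes with more than 1 exon, 767 midpoints lay within 100 bp of the end of the first exon, whose median length was 254 bp. In protein-coding transcripts, 1075 midpoints were downstream of the start codon and 751 upstream of it. Median ChIP counts were alike in the 3 main places: 35.5 and 31 reads in introns, 38 and 34 in coding exons, and 34 and 32 in 5′ untranslated regions, in ChIP replicates 1 and 2. Across these places the medians thus ranged only from 34 to 38 reads in replicate 1 and from 31 to 34 in replicate 2.

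The deposited values are read counts per peak in each library. All 10069 peaks together held 73251 reads in the input, 426784 in ChIP replicate 1 and 364261 in replicate 2. The peaks just downstream of a TSS took 18.2%, 18.1% and 18.8% of these. They had a median of 7 reads in the input (range 0 to 25), 36 in ChIP replicate 1 (9 to 312) and 32 in replicate 2 (9 to 273). Peaks were called on the merged ChIP reads, which puts a high ChIP count into their selection, and at all 1892 both ChIP libraries exceeded the input. For the same reason a comparison of ChIP with input over these peaks is not independent of how they were found. The total depth of the libraries was not used here, so a ratio of counts is not a fold enrichment and serves only to compare peaks with each other.

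The median ratio of ChIP to input counts, with 0.5 added to each, was 4.91 ± 0.392 (SD, n = 2 ChIP libraries over 1 input). The same ratio was 5.23 ± 0.703 in peaks just upstream, 4.97 ± 0.810 in peaks overlapping a TSS of 1 strand and 4.35 ± 0.299 in peaks over 1 kb from any TSS. On the log2 scale, the median of peaks just downstream minus that of TSS-overlapping peaks was −0.10 in replicate 1 and 0.08 in replicate 2, so the direction differed between replicates. Against peaks just upstream the difference was −0.14 and −0.03, a mean of −0.09 ± 0.08 that is close to its own SD. Against peaks over 1 kb away it was 0.19 and 0.16 (0.17 ± 0.02), higher in both libraries by more than the spread between them. These differences rest on 2 ChIP libraries that share 1 input, and no test was run on them. The 2 ChIP libraries also split their reads differently between classes: the summed count of replicate 2 over that of replicate 1 was 0.884 just downstream of a TSS, 0.828 just upstream and 0.801 over a TSS.

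Individual peaks were compared with the typical peak by edgeR's quasi-likelihood test, fitted over all 10069 peaks and all 3 libraries, with Benjamini-Hochberg adjusted p under 0.05. In this test 19 of the 1892 peaks just downstream of a TSS (1.0%) were above the typical ratio of ChIP to input, where the share over all peaks was 1.53%. None was below it, where the share over all peaks was 0.0497%. At an unadjusted p under 0.05, edgeR placed 133 above (7.03%) and 27 below (1.43%), where the shares over all peaks were 7.89% and 2.55%. DESeq2 gave an adjusted p at 103 of the peaks and none at the other 1789. It called 4 of these 103 above, all among the 19, and none below. Over all peaks it called 22 of the 699 with an adjusted p above (3.15%). With the size factors of DESeq2, edgeR called 7, where the share over all peaks was 0.387%. With the TMM factors the share above was no higher than in all peaks. The single input was assumed to vary as the ChIP libraries did.

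The 2 peaks with the highest mean ChIP count lay in genes of mitochondrial oxidative phosphorylation. Ndufs8, a subunit of respiratory complex I, had 312 reads in ChIP replicate 1, 250 in replicate 2 and 11 in the input (peak chr19:3912382-3912681, 93 bp into the gene, with a TSS of the GENCODE basic set inside the peak). Its log2 ratio to the typical peak was 2.35 ± 0.31 (SE, adjusted p = 1.25e-09, edgeR). Atp5e, the epsilon subunit of ATP synthase, had 303 and 273 ChIP reads and 15 input reads at chr2:174463651-174463950, 151 bp into the gene, with a log2 ratio of 1.95 ± 0.28 (adjusted p = 7.83e-08, edgeR). In both genes the peak was in the first intron, and in both the ChIP libraries stood far above the input and near each other. These were also the only genes of the respiratory chain list among the 19.

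The next highest counts had other neighbours. Ilvbl, which encodes an acetolactate synthase-like protein, had 193, 200 and 14 reads in ChIP replicate 1, replicate 2 and the input (log2 ratio 1.498 ± 0.32, adjusted p = 0.00124, edgeR). Rpl27, a protein of the large ribosomal subunit, had 196, 174 and 11 (1.75 ± 0.35, adjusted p = 2.70e-04, edgeR) in its 5′ untranslated region, and its peak held no hexamer. Tmem259, which encodes the membrane protein membralin, had 165, 192 and 7 (2.36 ± 0.40, adjusted p = 5.46e-06, edgeR). Tha1, a threonine aldolase gene, had 162, 174 and 9 reads in a coding exon, and the non-coding 4930526I15Rik had 180, 154 and 8. Eva1b completed the 8 highest with 148 and 182 ChIP reads, but its input was 20, its log2 ratio 0.74 ± 0.31 and its adjusted p 0.314 by edgeR. Of these 8 peaks 7 were thus called. With the size factors of DESeq2 in edgeR, Ilvbl (adjusted p = 0.0881) and Tha1 (0.0750) lost the call. In DESeq2 both lost it, as did Rpl27 (adjusted p = 0.0987) and 4930526I15Rik (0.0770).

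Another 6 called peaks had few input reads. Pyurf had no input read beside 110 and 100 ChIP reads. Gtf2i, which encodes the transcription factor TFII-I, had 97 and 63 ChIP reads and 1 input read. The other 4 had 2 input reads each: 80 and 65 ChIP reads at Vwa8, 57 and 84 at the RNA helicase gene Ddx39b, 78 and 60 at the lysosomal sulfatase gene Arsb, and 80 and 45 at Bsg, which encodes basigin. Bsg had the largest adjusted p of these 6 (0.0423, edgeR), and it lost the call with column totals in place of TMM (0.0845). With the size factors of DESeq2 in edgeR, Pyurf kept the call and the other 5 lost it, with adjusted p from 0.0923 (Gtf2i) to 0.326 (Ddx39b). With 0 to 2 input reads the ratio at these peaks is imprecise.

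The remaining called peaks had 5 to 8 input reads. Gpam, which encodes the acyltransferase that starts glycerolipid synthesis, had 133, 114 and 5 reads in ChIP replicate 1, replicate 2 and the input. Smim20 had 150, 123 and 8, Tbc1d22a 130, 118 and 8, and Mbd3, a subunit of the NuRD chromatin complex, 105, 77 and 5. The non-coding D730003I15Rik had 142, 86 and 8 reads with an adjusted p of 0.0490, the closest to the threshold (edgeR). With the size factors of DESeq2 in edgeR, Gpam (adjusted p = 0.0615), Smim20 (0.0923), Tbc1d22a (0.151), Mbd3 (0.256) and D730003I15Rik (0.352) lost the call. All of these also lost it in DESeq2. With column totals Mbd3 (0.0890) and D730003I15Rik (0.110) lost it as well. Of the 19 called peaks 15 held a hexamer, 5 held a DR1 and 9 began within 100 bp of the TSS. A TSS of the GENCODE basic set lay inside 5 of them, at Ndufs8, Ilvbl, Rpl27, Vwa8 and Bsg. The highest input count belonged to the splicing factor gene Cwc22, with 25 reads beside 115 and 103 in the ChIP libraries, and it was not called.

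The 2 ChIP libraries were compared peak by peak. An exact binomial test, which covers counting error only and takes the library totals at peaks as the expected share, found none of the 1892 peaks different between replicates after adjustment, and 10 of all 10069 (0.0993%). At an unadjusted p under 0.05 it found 156 (8.25%), and 8.83% over all peaks. The smallest p belonged to Ppan, a ribosome biogenesis gene, with 96 reads in replicate 1 and 40 in replicate 2 (adjusted p = 0.0684, exact binomial test). With the totals over the peaks just downstream of a TSS as the expected share, Ppan alone passed. Across the peaks, which share libraries and differ in input, Pearson's r between the replicates' log2 counts was 0.812, and 0.822 over all other peaks.

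**Figure D2:**
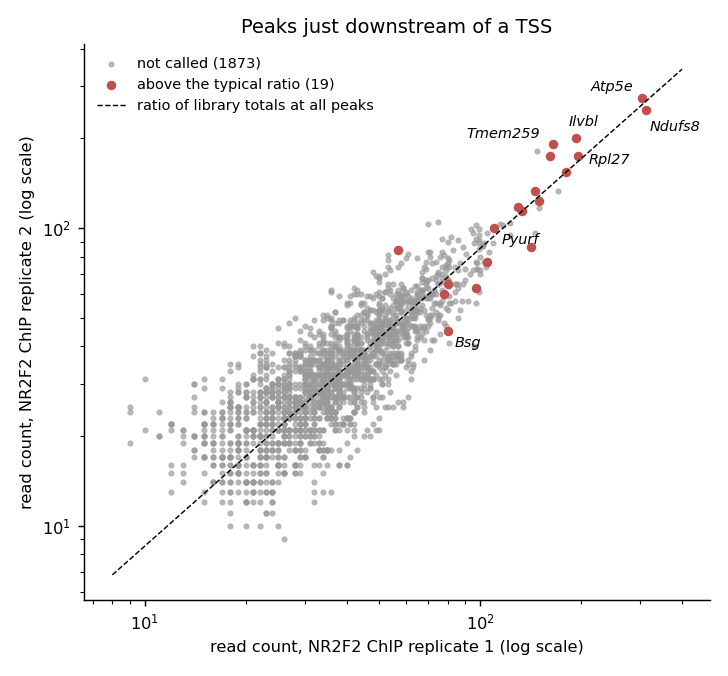
Read counts of the 1892 peaks just downstream of a TSS in NR2F2 ChIP replicate 1 (horizontal axis, log scale) and replicate 2 (vertical axis, log scale). Red points are the 19 peaks above the typical ratio of ChIP to input, grey points the others, and the dashed line is the ratio of the library totals at all peaks. Ndufs8 (312 and 250 reads) and Atp5e (303 and 273) stand apart at the upper right, and Bsg (80 and 45) lies below the line.

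The edges of the position rule fell among ordinary peaks. Abcb6 was among the peaks nearest inside, which began 1 bp after their TSS, with 76 and 55 ChIP reads and 15 input reads. At D430019H16Rik the TSS coincided with the peak edge, which put the peak outside with 57, 37 and 8 reads. Gnaq was the farthest inside at 997 bp, with 23, 28 and 3 reads, and Crh lay just beyond at 1002 bp with 20, 20 and 5. Curated start sites set the rule, and 162 of the peaks held a predicted RefSeq TSS, 309 a TSS of the GENCODE basic set, and 1470 neither. Peaks with a further start site inside are downstream of one TSS and over another.

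Hexamers AGGTCA or GGGTCA, searched on both strands, were found in 894 of the 1892 peaks (47.3%, 95% Wilson interval 45.0 to 49.5). Windows of 300 bp placed 184 bp downstream of curated TSSs with no peak within 2 kb gave 27.3% of 20645, and those of them with a GC content of at least 60% gave 23.0% of 5027. The share was 44.5% in peaks overlapping a TSS, 55.3% in peaks just upstream and 73.7% in peaks over 1 kb away. The longer forms AGAGGTCA and AGGGGTCA, which contain the hexamer, were in 6.29% of the peaks (5.28 to 7.47) and in 2.60% of the windows. A DR1 was in 16 peaks (0.846%, 0.521 to 1.37), against 0.637% of peaks just upstream, 0.638% of peaks over a TSS, 4.45% of peaks over 1 kb away, 0.0678% of the windows and 0.0796% of the GC-rich windows. Peaks are not replicates, so the intervals cover only the number of peaks and no p is given.

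The classes also differed in composition. The median GC content was 66.3% just downstream of a TSS, 62.3% just upstream, 65.7% over a TSS and 53.3% over 1 kb away. The ratio of observed to expected CpG was 0.769, 0.714, 0.827 and 0.251 in the same order. When the peaks just downstream were put into quartiles of that ratio, the hexamer share fell from 61.5% in the lowest to 53.9%, 42.1% and 31.5% in the highest. GC-rich windows within the same bounds gave 30.8%, 22.7%, 20.5% and 15.4%. The share in the peaks was above that of the windows in each of the 4 quartiles, and it fell with CpG content in both. The intervals of peaks and windows did not overlap, but they cover only the number of regions. The windows had a lower limit on GC content and the peaks had none, so GC content was not matched. The median GC content of the peaks was 61.7% in the lowest quartile and 68.3% in the highest.

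The hexamer share rose with the ChIP count. In deciles of summed ChIP count it was 27.4% in the lowest (21.5 to 34.1), 45.5% in the fifth and 77.4% in the highest (70.9 to 82.7). The lowest decile, with sums of 25 to 40 reads, had an interval that includes the 23.0% of the GC-rich windows. Of the 16 DR1, 14 were in the highest decile, which began at 122 reads. GC content hardly moved along this order (64.3% in the lowest decile, 66.0% in the highest), but the median input count rose from 4 to 10 reads, and its part in the trend was not tested. In deciles of the log2 ratio of ChIP to input, where the input median fell from 9 to 2, the share rose from 35.8% (29.3 to 42.8) to 55.3% (48.2 to 62.2). The direction was the same in both orders and the range was narrower in the second. Other classes also had high shares in their highest decile, at 73.6% just upstream of a TSS, 80.9% over a TSS and 82.9% over 1 kb away. In their lowest decile the shares were 39.1%, 35.1% and 65.4%.

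**Figure D3:**
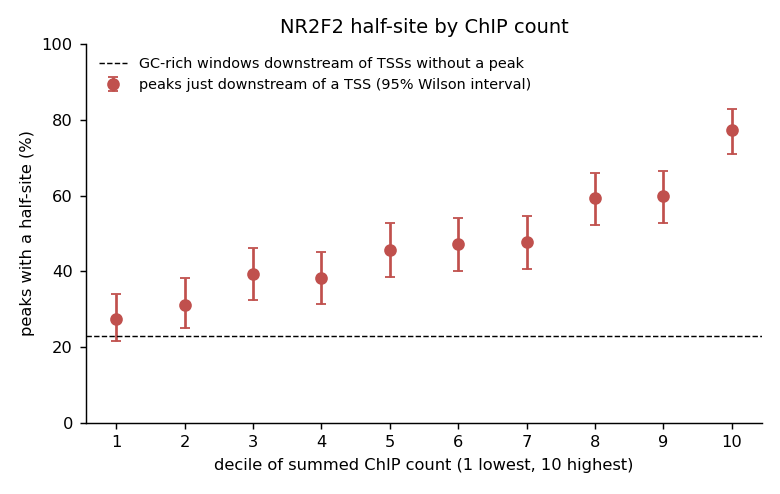
Percentage of peaks just downstream of a TSS that hold AGGTCA or GGGTCA (vertical axis) in deciles of the summed ChIP count, from the lowest (1) to the highest (10, horizontal axis). Points are shares with 95% Wilson intervals, and the dashed line is the share in GC-rich windows downstream of TSSs without a peak, 23.0%. The share is 27.4% in the lowest decile and 77.4% in the highest.

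Peaks with more hexamers had more reads. The 998 peaks with none had median counts of 6, 32 and 28 in the input and the 2 ChIP replicates, the 638 with 1 had 7, 39 and 34, the 185 with 2 had 8, 45 and 39, and the 20 with 4 or more had 11, 70.5 and 60.5. The median ratio of ChIP to input was 4.67 ± 0.401 with none, 5.11 ± 0.435 with 1, 5.44 ± 0.314 with 2, 5.33 ± 0.471 with 3 and 6.05 ± 0.932 with 4 or more (SD, n = 2 ChIP libraries). From none to 4 or more it went from 4.95 to 6.71 in replicate 1 and from 4.38 to 5.39 in replicate 2, higher in both, but the peaks with 3 did not exceed those with 2. Of the peaks with none, 4 were called above the typical peak (0.401%), and of those with 4 or more, 3 (15.0%). The 4 without a hexamer were Rpl27, Pyurf, Gtf2i and Gpam.

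The 16 peaks with a DR1 had median counts of 9, 76 and 86.5 and a median ratio of 9.15 ± 0.743 (SD, n = 2 ChIP libraries), and 5 of them were called. These were Ndufs8, Tmem259, Mllt10, Smim20 and Tbc1d22a. With the size factors of DESeq2 in edgeR, Smim20 (adjusted p = 0.0923) and Tbc1d22a (0.151) lost the call, and in DESeq2 Mllt10 (0.0860) lost it too. Fads3, of the fatty acid desaturase family, had 75, 105 and 10 reads in ChIP replicate 1, replicate 2 and the input and an adjusted p of 0.495 (edgeR). The lowest was Dip2a with 36, 31 and 9. The other 9 were Golga4, Mbd2, Ap1b1, Pex16, Acp4, Hnrnpab, Gm35721, Chkb and Ltbr, with mean ChIP counts from 60 to 85. Oxa1l, which encodes an insertase of the inner mitochondrial membrane, had the longer form without a repeat and 150, 117 and 13 reads (adjusted p = 0.158, edgeR).

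Hexamers lay toward the middle and the downstream side of the peaks. Of 1249 occurrences, 537 (43.0%, 40.3 to 45.8) had their centre within 50 bp of the midpoint, against 34.8% in the GC-rich windows. In the 941 peaks above the median of summed ChIP count there were 105 hexamers per 1000 peaks in the 25 bp before the midpoint and 28.7 at the upstream end of the peak. The density stayed at 87.1 to 99.9 from the midpoint to 124 bp downstream and fell to 51.0 in the last 25 bp. On the upstream side it was 43.6 at -125 to -101 bp and 40.4 at -100 to -76 bp. The peaks below the median reached 58.9, and the windows stayed between 15.1 and 27.7. Of the occurrences, 587 (47.0%, 44.2 to 49.8) read in the direction of the gene and 662 against it. By place of the midpoint, 52.4% of intronic peaks (49.5 to 55.3), 38.6% of those in coding exons (34.1 to 43.2) and 39.1% of those in 5′ untranslated regions (33.7 to 44.7) held a hexamer.

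**Figure D4:**
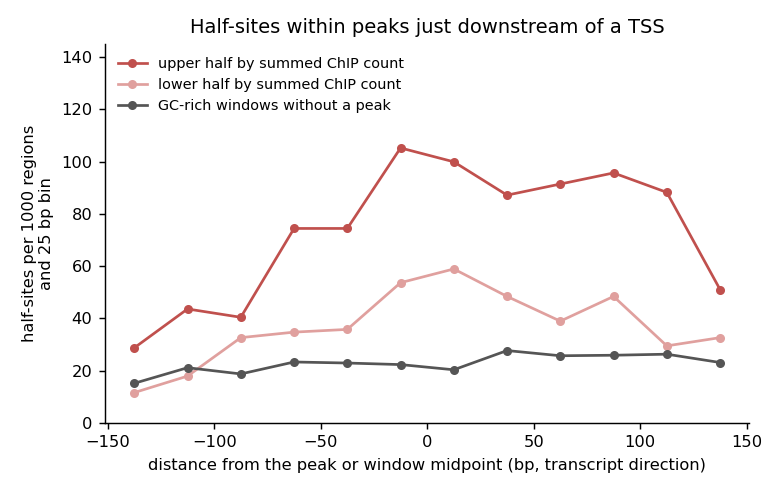
Number of AGGTCA or GGGTCA hexamers per 1000 regions and 25 bp (vertical axis) by distance from the midpoint, in bp in the direction of the gene (horizontal axis). Dark red is the upper 941 peaks just downstream of a TSS by summed ChIP count, light red the other peaks and grey the GC-rich windows without a peak. The dark red line is highest at 105 in the 25 bp before the midpoint, the light red line at 58.9 and the grey line at 27.7.

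The letters of several promoter factors were scarcer just downstream of a TSS than over it. GGGCGG, the GC box read by SP factors, was in 50.6% of the peaks just downstream, 65.5% of those over a TSS and 56.2% of the GC-rich windows. For the forms that follow, the shares in those windows were 5.61% for the ETS form, 0.239% for the cyclic AMP response element, 4.71% for the E-box, 14.8% for CCAAT and 1.39% for AAGATGGC. CCGGAAG, a form of the ETS site, was in 8.03% and 24.5% of the peaks just downstream and over a TSS. TGACGTCA, the cyclic AMP response element, was in 0.370% and 4.79%, and the E-box CACGTG in 8.09% and 13.1%. CCAAT was in 17.2% of the peaks just downstream, 31.6% of those just upstream and 27.6% of those over a TSS. AAGATGGC, a YY1 site, was in 3.28% of the peaks just downstream, 6.86% over a TSS and 2.09% just upstream. CAAGGTCA, the extended monomer site that NR5A1 and estrogen-related receptors read and that contains the hexamer, was in 3.96% just downstream, 4.82% just upstream and 11.2% over 1 kb away. Over a TSS it was in 2.23%, so this form went the other way and was more frequent just downstream. The share in peaks just downstream was thus the lowest of the 3 TSS classes for the GC box, the ETS form, the cyclic AMP response element, the E-box and CCAAT.

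The peaks were read against 17 gene lists, given as counts beside the background of 7.15% of genes that had a peak just downstream of a TSS. Interstitial genes, which mark the cells where NR2F2 is known in the fetal testis, had such a peak at 4 of 20. Gli1, an effector of Hedgehog signalling, had 77, 70 and 5 reads in ChIP replicate 1, replicate 2 and the input. Tcf21, a basic helix-loop-helix factor of mesenchyme, had 67, 71 and 11, Smad3, a transducer of TGF-beta and activin, 65, 53 and 7, and Maf 44, 60 and 11. All 4 lay above the medians of 36 and 32 ChIP reads, and none was called. Fetal Leydig and cholesterol genes had a peak at 2 of 32, among them Insig1, which restrains cholesterol synthesis, with 70, 63 and 9 reads. No gene of the Sertoli (0 of 19), germ cell (0 of 24) or peritubular and contractile lists (0 of 18) had such a peak. Peaks over a TSS lay at 2 interstitial genes and 8 fetal Leydig and cholesterol genes. They lay at 1 gene in each of the Sertoli, germ cell and peritubular and contractile lists.

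Endothelial and vein genes had a peak at 5 of 22, with mean ChIP counts of only 21.5 to 29.5 reads. The VEGF ligand gene Vegfc had 25, 34 and 6 reads, its receptor gene Kdr 26, 30 and 6, and Vegfb 24, 30 and 7, and of these 6 ChIP counts only that of Vegfc in replicate 2 exceeded the median of its library. Notch pathway genes had 4 of 31, led by the ubiquitin ligase gene Dtx1 with 58, 37 and 11, the receptor sheddase gene Adam10 with 35, 33 and 8, and Mib1, the ligase acting on Notch ligands, with 34, 28 and 6. Hedgehog genes had 3 of 16: Gli1, the decoy receptor gene Hhip with 22, 34 and 9 reads, and the transducer gene Smo with 20, 28 and 4. None of these was called.

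In the TGF-beta, activin and BMP pathway 7 of 37 genes had a peak. The BMP target gene Id1 had 75, 71 and 12 reads in ChIP replicate 1, replicate 2 and the input, and the SMAD corepressor gene Ski 50, 69 and 17. All 7 had mean ChIP counts of at least 39.0, and only 1 of the 7 peaks held a hexamer. Wnt genes had 7 of 38, and 5 of the 7 peaks held a hexamer. The 3 with the highest counts were the coreceptor gene Lrp5 with 63, 57 and 11 reads, the secreted antagonist gene Sfrp1 with 50, 61 and 15 and the transcription factor gene Tcf7l1 with 43, 34 and 5. Nuclear receptor genes had 3 of 48, namely the clock repressor gene Nr1d2 with 55, 42 and 5, the glucocorticoid receptor gene Nr3c1 with 28, 30 and 8 and Nr6a1 with 22, 25 and 9. Receptor coregulator genes had 4 of 22, among them the corepressor gene Ncor1 with 34, 32 and 11, the COUP-TF and GATA partner gene Zfpm2 with 27, 24 and 6 and the demethylase gene Kdm1a with 17, 31 and 2. Immediate-early and AP-1 genes had 4 of 34 with 5 peaks: Jun with 90, 73 and 14, the phosphatase gene Dusp1 with 41, 45 and 10, and Ier5 with 62, 38 and 8 at the stronger of its pair of peaks.

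Among the lists of widely expressed genes, respiratory chain genes had a peak at 14 of 85 (16.5%). The medians of these 14 were 63 and 56 ChIP reads over 8, and 11 of them held a hexamer. Beside Atp5e and Ndufs8, the complex III gene Uqcrc1 had 100, 80 and 8 reads in ChIP replicate 1, replicate 2 and the input (adjusted p = 0.276, edgeR), and the others had mean ChIP counts of 23.5 to 80.0. Splicing factor genes had 14 of 68 (20.6%), led by Hnrnpm with 105, 96 and 14 reads, Hnrnpab with 69, 73 and 13 and Hnrnpa0 with 56, 57 and 10, and none was called. Ribosomal protein genes had 11 of 85 (12.9%), with Rpl27 called, Rps7 at 76, 80 and 10 reads and Rpl13 at 62, 50 and 10. Matrix genes had 11 of 103 (10.7%), with the proteinase gene Adamts7 at 74, 67 and 16, the fibrillin gene Fbn1 at 70, 67 and 10 and Adamts17 at 65, 59 and 8. Peaks over a TSS lay at 32 respiratory chain, 15 splicing factor, 29 ribosomal protein and 8 matrix genes.

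**Figure D5:**
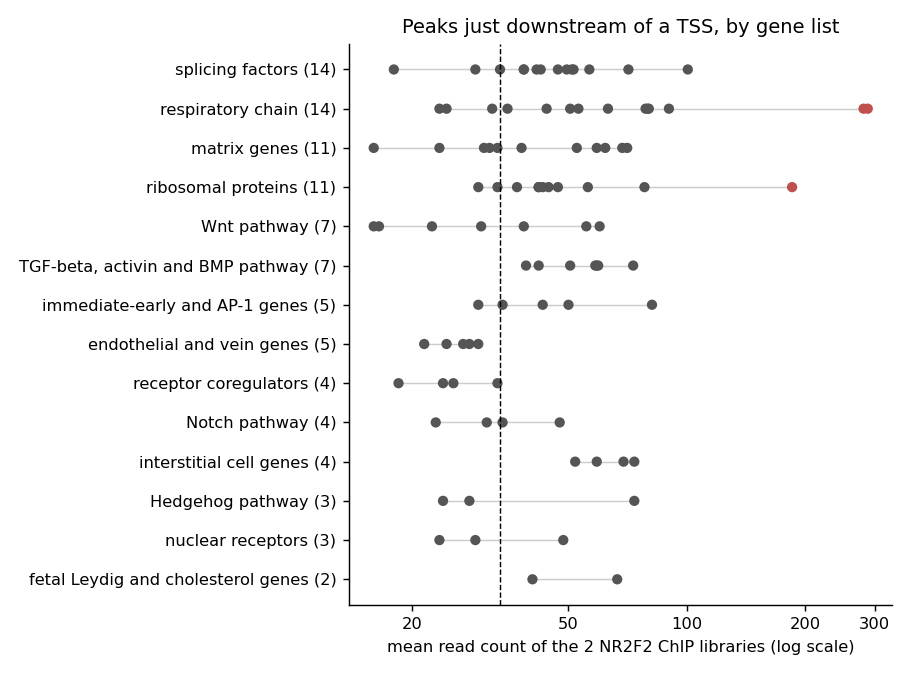
Mean read count of the 2 NR2F2 ChIP libraries (horizontal axis, log scale) at each peak just downstream of a TSS whose nearest gene is in a gene list (vertical axis, number of peaks in brackets). Red points are peaks above the typical ratio of ChIP to input, grey points the others, grey lines span a list's range and the dashed line is the median of all 1892 peaks. The respiratory chain list reaches 288 reads, while the endothelial and vein list ends at 29.5.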

How the data were processed

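ChIP-seq for NR2F2 was done in E14.5 mouse testes (2 ChIP libraries, 1 input). The deposited values are raw counts of reads per peak and library. The authors trimmed single-end reads (Trim Galore 0.6.7), mapped them to mm10 with Bowtie2, filtered on mapping quality, removed duplicates (Picard 1.110), called peaks with HOMER 4.11.1 on the merged ChIP replicates and resized them to 300 bp. Duplicate removal limits how high a count can rise. No source read here states how a read was assigned to a peak. The study describes the ChIP libraries as independent experiments on pooled testes and as biological replicates, and edgeR p-values measure the spread between these libraries. No source read here states whether both used 1 pool, in which case that spread and the SDs would be technical. The binomial test covers counting error only.

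Counts were fitted with edgeR 4.0.16 (quasi-likelihood test, limma 3.58.1, R 4.3.3) with TMM factors on the counts at peaks, two-sided, and Benjamini-Hochberg adjustment over all 10069 peaks. TMM factors were 1.05 (input), 0.975 and 0.973. No filter on low counts was used. The SE of an edgeR log2 ratio was derived as its absolute value divided by the square root of the F statistic of the test. DESeq2 1.42.0 was an alternative. On simulated counts of 10069 peaks, the edgeR test called 92 of 100 peaks raised 4-fold, 40 of 100 lowered 4-fold and 10 of 9869 unchanged ones. The changed peaks were drawn from those above the median count, and all peaks were given a common spread. Changes at peaks with lower counts were thus not tried. Positions used 45756 curated transcripts of 26180 genes (RefSeq, GRCm38.p6), and sequences came from the same assembly. 5 peaks on unplaced contigs, 560 over TSSs of both strands and 409 within 1 kb of TSSs on both strands stayed in the fits and out of the position classes. Wilson intervals are at 95% and cover counting error only.

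The members and the gene lists were chosen with earlier results of these data known. Genes named are the 8 peaks with the highest mean ChIP count, the 6 largest and 3 smallest ratios among called peaks, up to 3 per gene list (1 of these genes is not reported here), the 6 strongest with a long hexamer form or a DR1, the peaks at the ends of the distance rule, the gene with 3 peaks, and the extremes of the input count and of the replicate test. The other called peaks and the other genes of lists, DR1 peaks and peaks without a hexamer were named after their values were seen. Alternatives were another scaling, tool, filter, pseudocount, annotation, distance limit and part of the peak.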

Additional observations from a re-analysis of the deposited data

How the results depend on the processing

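With the size factors of DESeq2 in edgeR 7 peaks just downstream of a TSS were above the typical peak (39 of all peaks), with column totals 16 (102), with DESeq2 4 (22), with robust fitting 19 (154), and with at least 10 input counts 6 (58). In the last, 439 of these peaks and 2427 of all peaks were tested, and 4 of the 6 were among the 19. Column totals moved the median log2 ratio of all peaks by −0.11. DESeq2 gave no adjusted p at 1789 of the peaks. None was below the typical peak in any of these fits. Of the 19 called peaks, 12 lost the call with the size factors of DESeq2, 3 with column totals and 10 of the 14 with an adjusted p in DESeq2. No sign changed where a peak had a value, which excludes 5 of the 19 in DESeq2 and 15 with at least 10 input counts. With totals over these peaks alone 1 peak, Ppan, differed between replicates. The median ratio was 3.36 with 5 added to each count, 3.93 with at least 10 input counts and 4.64 to 5.19 with 1 ChIP library left out. Leaving out 1 ChIP library gave log2 differences of −0.10 to 0.08 from TSS-overlapping peaks, −0.14 to −0.03 from peaks just upstream and 0.03 to 0.10 from all other peaks. The direction against TSS-overlapping peaks thus turned on the library, and it also turned with at least 10 input counts (0.02). The share with AGAGGTCA or AGGGGTCA was 2.43% in the central 100 bp and 8.61% in the 941 peaks above the median summed ChIP count, and that with AGGTCA or GGGTCA was 55.1% with at least 10 input counts and 48.9% without a predicted or GENCODE TSS inside, both chosen after seeing the data. Other rules gave 1603 to 2219 peaks and 1.65 to 1.88 peaks downstream for each upstream. The cause of these changes was not tested. No paired analysis was possible because the single input carries no replicate number. The called counts have no value with a ChIP library left out, since 1 library against 1 leaves no residual degrees of freedom. The input median of 7 reads limits every ratio.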
